A study of Mus musculus with 6 samples.

Results

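Cyclin A2, cyclin B1, cyclin B2 and cyclin F (Ccna2, Ccnb1, Ccnb2, Ccnf), the mitotic kinase Cdk1, the phosphatases Cdc25a, Cdc25b and Cdc25c and the kinases Wee1 and Pkmyt1 form the switch by which a cell leaves G2 and enters mitosis. These 10 genes were taken by symbol from the count table, which named 45527 genes; all 10 were found, and all 10 passed the filter on low counts together with 16252 genes in all. They were read in satellite cells, the resident stem cells of muscle, which express Pax7. The iKO-labelled libraries came from Paxbp1-iKO mice (Pax7creER:Paxbp1flox/flox:R26R-YFP) and the controls from mice with a single floxed allele (Pax7creER:Paxbp1flox/+:R26R-YFP), with 3 libraries in each group. All mice of both groups thus carried the inducible creER recombinase driven from Pax7, at least 1 floxed Paxbp1 allele and the R26R-YFP reporter, so cells of the controls need not have had both Paxbp1 alleles intact. The sources used here do not give the age of the mice. Lower hindlimb muscles of all of them were injured with 30 µl of cardiotoxin, which destroys fibres and sets off regeneration, and YFP-positive cells were sorted 24 h later. The study asked what Paxbp1 does in the return of these quiescent cells to the cell cycle.

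Cdk1 is active only when bound by an A- or B-type cyclin. Wee1 in the nucleus and Pkmyt1 (Myt1) at internal membranes phosphorylate Cdk1 next to its ATP-binding site and hold it inactive, and the Cdc25 phosphatases remove those phosphates; active Cdk1 in turn stimulates Cdc25 and restrains Wee1 and Myt1, so the system flips between an off and an on state. The messenger RNAs of Cdk1 and the mitotic cyclins are made mainly from late G1 to mitosis and are repressed in quiescent cells, where the MuvB complex binds CHR elements of their promoters; NF-Y, which binds CCAAT boxes, is a general activator of such promoters.

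Upstream sequence is shown for 4 of the genes with a matched window, picked by the responses described below. Cdk1 and Ccnb1 fell, Ccnb2 did not pass the test and Cdc25b was called higher, close to the threshold. Ccna2 and Wee1, which had the lowest and highest fold changes of the 10, had no matched window. Each line gives the 250 bases before the RefSeq start site (GRCm38.p6), 5′ to 3′ on the strand of the gene, with matches to the searched motifs in capitals.
Cdk1, chr10:69352913-69353162, minus strand: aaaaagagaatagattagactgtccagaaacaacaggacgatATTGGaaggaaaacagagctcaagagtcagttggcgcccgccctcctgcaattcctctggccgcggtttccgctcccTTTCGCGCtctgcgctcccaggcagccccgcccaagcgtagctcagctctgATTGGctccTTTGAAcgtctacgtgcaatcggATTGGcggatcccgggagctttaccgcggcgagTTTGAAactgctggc
Ccnb1, chr13:100786487-100786736, minus strand: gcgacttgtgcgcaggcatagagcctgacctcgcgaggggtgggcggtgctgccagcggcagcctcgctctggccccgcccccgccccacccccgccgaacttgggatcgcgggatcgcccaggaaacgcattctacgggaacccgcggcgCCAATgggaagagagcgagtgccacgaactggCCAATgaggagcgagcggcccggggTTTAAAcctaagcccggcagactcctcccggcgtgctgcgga
Ccnb2, chr9:70421555-70421804, minus strand: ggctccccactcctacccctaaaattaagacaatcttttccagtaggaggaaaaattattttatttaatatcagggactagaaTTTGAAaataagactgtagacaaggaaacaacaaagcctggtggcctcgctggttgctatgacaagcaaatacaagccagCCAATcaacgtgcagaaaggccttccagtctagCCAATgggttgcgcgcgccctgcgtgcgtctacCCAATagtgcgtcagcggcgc
Cdc25b, chr2:131186698-131186947, plus strand: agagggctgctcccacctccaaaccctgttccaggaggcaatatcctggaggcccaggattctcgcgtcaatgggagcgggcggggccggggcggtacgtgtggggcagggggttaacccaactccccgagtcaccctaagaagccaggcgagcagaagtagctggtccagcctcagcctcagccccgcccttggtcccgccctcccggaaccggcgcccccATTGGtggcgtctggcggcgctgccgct
The motifs were CCAAT (NF-Y box), TTTGAA and TTTAAA (CHR forms) and TTTCGCGC and TTTGGCGC (E2F forms), each searched on both strands, and no match overlapped another. RefSeq windows were matched for 6 of the 10 genes: these 4, Ccnf and Cdc25a; Ccna2, Wee1, Pkmyt1 and Cdc25c were not matched. All 6 windows held a CCAAT box, as did 33.8% of 32851 windows of this length from 27025 genes. Cdk1 and Ccnb2 had 3 CCAAT boxes, Ccnb1, Ccnf and Cdc25a 2, and Cdc25b 1. TTTGAA lay in Cdk1 (starting 71 and 15 bases upstream), Ccnf (130 and 14) and Ccnb2 (167), against 16.0% of all windows. TTTAAA lay in Ccnb1, 42 bases upstream, against 12.1% of all windows. TTTCGCGC lay in Cdk1 and TTTGGCGC in Cdc25a, motifs held by 0.256% and 0.417% of all windows. The Cdc25b window held neither a CHR form nor an E2F form. Distances are from the RefSeq start site. The Cdk1, Ccnb1 and Ccnf windows run into the gene as placed by the GENCODE M21 annotation. The match nearest the RefSeq start in each of these windows lies inside that gene. These matches describe letters in a window and do not show binding.

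**Figure D1:**
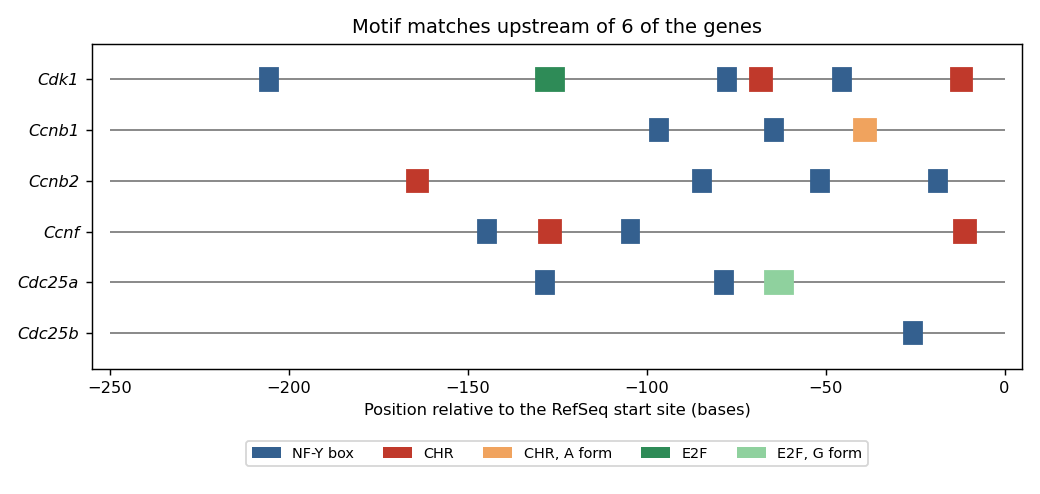
Matches of the searched motifs in the 250 bases upstream of the RefSeq start site of 6 of the genes; the x axis is the distance from the start site in bases, and colour marks the motif. A CHR form lay in the Cdk1, Ccnb1, Ccnb2 and Ccnf windows, and Cdc25b had a single CCAAT box 28 bases upstream.

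Counts in named genes were 23299344 to 28016271 per iKO-labelled library and 23483305 to 27277555 per control library. Named genes with any count numbered 24256, 22964 and 25433 in iKO-labelled libraries 1 to 3, against 24334, 20508 and 20393 in controls 1 to 3. The part of this difference in the levels below was not tested. Levels below are CPM, read counts relative to the TMM-scaled library size; fold changes are log2 of iKO-labelled over control ± SE, and adjusted p-values are Benjamini-Hochberg values over all 16252 genes, from the quasi-likelihood test of edgeR. The series names 3 pairs of mice, but which animals gave which library is not stated in the labels. The test did not use pairs. A p-value here measures the spread between libraries, part or all of which may be technical. The targeted gene goes against the label: Paxbp1 had 96.1, 108 and 126 CPM in iKO-labelled libraries 1 to 3, against 70.7, 74.0 and 60.9 CPM in controls 1 to 3 (0.68 ± 0.13, adjusted p = 0.00954). Its exons share 1142 bases with 4930404I05Rik on the opposite strand, the counts span the whole gene, and the floxed exons are not named in the labels; every direction below is drawn from the libraries' labels. Satellite cell markers were abundant in both groups as a sum, with 12071 to 12659 CPM over 9 markers in the iKO-labelled libraries and 9596 to 10101 CPM in the controls. Sdc4 was the largest part of that sum, with means of 6077 CPM in the iKO-labelled libraries and 3907 CPM in the controls. Of the 9, 5 rose and 3 fell, where 8.15% of all tested genes were higher and 12.3% lower. Pax7 rose, with a mean of 49.4 CPM in the iKO-labelled libraries and 11.3 CPM in the controls, as did Chodl (924 and 162 CPM). Those that fell, named after their values were seen, were Myf5 (-0.62), Des (-0.37) and Itga7 (-0.68). In sorted bulk RNA, fewer dividing cells and less RNA of these genes per cell cannot be told apart.

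The 10 genes did not move together. Cdk1, Ccna2, Ccnb1 and Pkmyt1 fell, by 7.78-fold to 31.6-fold, while Wee1 rose 2.20-fold and Cdc25b was called higher at 1.93-fold. Ccnb2, Ccnf, Cdc25a and Cdc25c did not pass the test. Thus 4 of 10 were lower, where 12.3% of all tested genes were lower, and 2 of 10 were higher, where 8.15% were higher. Groups did not overlap for 7 of the 10, against 39.8% of all tested genes.

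**Figure D2:**
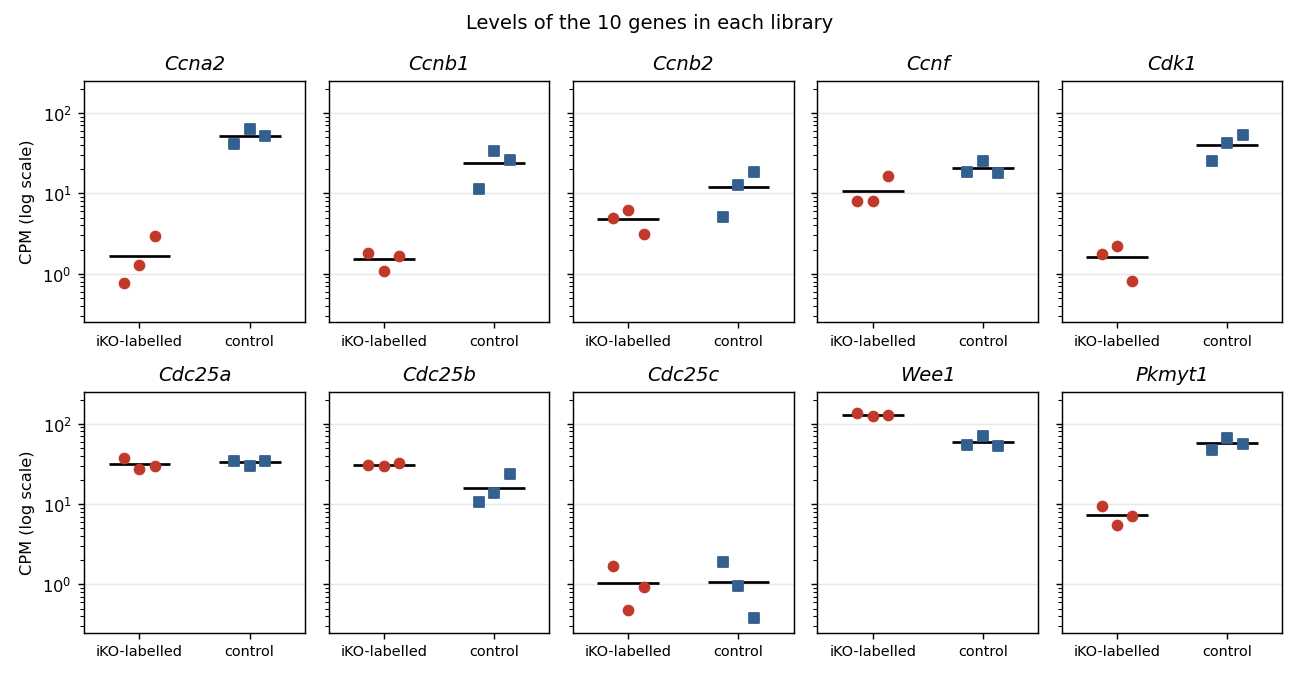
CPM of each of the 10 genes on a log axis, with 1 point per library (circles iKO-labelled, squares control) and a bar at the group mean. Cdk1, Ccna2, Ccnb1 and Pkmyt1 lay lower in every iKO-labelled library than in any control, Wee1 and Cdc25b lay higher, and Ccnb2, Cdc25a and Cdc25c overlapped.

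Messenger RNA of the kinase itself fell in the iKO-labelled libraries. Cdk1 (ENSMUSG00000019942.13, chr10:69335146-69352938, minus strand; gene positions are GENCODE M21, GRCm38) had 1.78, 2.21 and 0.809 CPM in iKO-labelled libraries 1 to 3, against 25.1, 42.1 and 53.4 CPM in controls 1 to 3. Every iKO-labelled library lay far below every control, and control 1 was the lowest of the controls. The fold change was -4.63 ± 0.43 (adjusted p = 4.2e-04), a 24.8-fold lower level. It rests on 51, 65 and 20 reads in the iKO-labelled libraries, against 563, 1090 and 1395 in the controls.

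Among the cyclins, Ccna2 and Ccnb1 fell and Ccnb2 and Ccnf were not past the threshold. Ccna2, the cyclin that partners Cdk2 in S phase and Cdk1 in G2 (ENSMUSG00000027715.9, chr3:36564865-36572150, minus strand), had 0.770, 1.29 and 2.95 CPM in iKO-labelled libraries 1 to 3, against 41.5, 63.6 and 51.9 CPM in controls 1 to 3. It fell 31.6-fold with no overlap of the groups (-4.98 ± 0.45, adjusted p = 4.0e-04). Exons of Ccna2 share 510 bases, 12.5% of their length, with Exosc9 on the opposite strand, which had 1415 to 2065 counts in the iKO-labelled libraries and 1336 to 1399 in the controls; how reads in that stretch were assigned is not stated. Ccnb1, the main mitotic partner of Cdk1 (ENSMUSG00000041431.16, chr13:100778650-100786570, minus strand), had 1.82, 1.09 and 1.66 CPM in iKO-labelled libraries 1 to 3, against 11.3, 33.8 and 26.2 CPM in controls 1 to 3. Again the groups were apart, with control 1 the lowest control (-3.96 ± 0.45, adjusted p = 9.0e-04).

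Ccnb2, the B-type cyclin found mainly at the Golgi apparatus (ENSMUSG00000032218.7, chr9:70407692-70421547, minus strand), had 4.90, 6.23 and 3.12 CPM in iKO-labelled libraries 1 to 3, against 5.09, 12.9 and 18.3 CPM in controls 1 to 3. Control 1 lay below iKO-labelled library 2, so the groups overlapped, and the spread of the controls was wide (-1.34 ± 0.48, 95% interval -2.44 to -0.25, unadjusted p = 0.0223, adjusted p = 0.0871 in edgeR). It was called under 3 of 17 alternatives, among them without control 1 (-1.71, adjusted p = 0.0214) and in DESeq2 (adjusted p = 0.0203), but not without control 3 (-0.91, adjusted p = 0.276) or in limma-voom (adjusted p = 0.131). Ccnf, a cyclin that binds no Cdk and instead gives an SCF ubiquitin ligase its targets in G2 (ENSMUSG00000072082.7, chr17:24222198-24251484, minus strand), had 7.98, 8.0 and 16.3 CPM in iKO-labelled libraries 1 to 3, against 18.7, 24.9 and 17.8 CPM in controls 1 to 3. The groups did not overlap, but iKO-labelled library 3 lay close to control 3 (-0.93 ± 0.32, 95% interval -1.67 to -0.20, adjusted p = 0.0781). It was called under 6 of 17 alternatives, among them without iKO-labelled library 3 (-1.36, adjusted p = 0.0182) and in DESeq2 (adjusted p = 0.0208), but not without iKO-labelled library 1 (-0.76, adjusted p = 0.206). Among other A- and B-type cyclins, the germline cyclins Ccna1 and Ccnb3 did not pass the filter on low counts, with means of 0.0638 and 0.490 CPM in the iKO-labelled libraries and 0.0446 and 0.257 CPM in the controls. Of 5 related cyclins listed (these, Ccnjl, Ccno and Ccnj), the tested ones were Ccno and Ccnj, which are not A- or B-type cyclins, and edgeR called 0 (0 at an unadjusted p under 0.05; DESeq2 and limma-voom also called 0).

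The inhibitory kinases moved in opposite directions. Wee1 (ENSMUSG00000031016.9, chr7:110122046-110143286, plus strand) had 137, 126 and 128 CPM in iKO-labelled libraries 1 to 3, against 53.8, 70.0 and 53.5 CPM in controls 1 to 3. The groups stood well apart and the iKO-labelled libraries lay close to each other (1.14 ± 0.13, adjusted p = 8.8e-04). Pkmyt1 (ENSMUSG00000023908.8, chr17:23726336-23736735, plus strand) had 9.34, 5.45 and 7.16 CPM in iKO-labelled libraries 1 to 3, against 47.6, 67.1 and 56.2 CPM in controls 1 to 3. It fell 7.78-fold with no overlap (-2.96 ± 0.24, adjusted p = 2.2e-04). Exons of Pkmyt1 share 319 bases, 8.76% of their length, with Paqr4 on the opposite strand, which was also lower (90 to 132 counts in the iKO-labelled libraries, against 192 to 372 in the controls; -1.52 ± 0.35, edgeR adjusted p = 0.0186); the part of shared reads in either value was not tested.

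Of the phosphatases, Cdc25b alone passed the test. Cdc25b, which acts on cyclin-Cdk1 at the centrosome early in mitotic entry (ENSMUSG00000027330.16, chr2:131186949-131198497, plus strand), had 30.8, 30.0 and 32.4 CPM in iKO-labelled libraries 1 to 3, against 10.6, 13.8 and 23.8 CPM in controls 1 to 3. The groups did not overlap, and the controls varied far more than the iKO-labelled libraries (0.95 ± 0.28, adjusted p = 0.0494). This call is close to the threshold: it ended without control 1 or 2 or iKO-labelled library 1, 2 or 3 (log2 fold change 0.72, 0.85, 0.95, 0.97 and 0.92; adjusted p = 0.104 to 0.141 in edgeR) and held without control 3 (1.36, adjusted p = 0.00679). Exons of Cdc25b share 92 bases, 2.47% of their length, with Spef1 on the opposite strand (0.97 ± 0.43, edgeR adjusted p = 0.164). The part of shared reads in either value was not tested.

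Cdc25a, the phosphatase that also acts on Cdk2 at the start of S phase and is degraded after DNA damage (ENSMUSG00000032477.14, chr9:109875579-109893895, plus strand), had 37.0, 27.5 and 29.4 CPM in iKO-labelled libraries 1 to 3, against 34.5, 29.8 and 34.5 CPM in controls 1 to 3. The groups overlapped, and the 95% interval of the log2 fold change ran from -0.44 to 0.30 (-0.07 ± 0.16, adjusted p = 0.810; the sign turns under upper-quartile and library-total scaling). A change of the size seen in Cdk1, Ccna2 or Ccnb1 lies outside that interval. Cdc25c, the phosphatase that active Cdk1 stimulates (ENSMUSG00000044201.10, chr18:34732993-34751533, minus strand), had 1.71, 0.477 and 0.931 CPM in iKO-labelled libraries 1 to 3, against 1.87, 0.965 and 0.383 CPM in controls 1 to 3. With 14 to 49 reads per iKO-labelled library and 10 to 42 per control, its interval was wide, from -1.91 to 1.83 (adjusted p = 0.979); a fall as large as that of Cdk1 lies outside it, and smaller differences in either direction lie inside. Its exons share 623 bases with the predicted gene Gm3550 on the opposite strand.

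**Figure D3:**
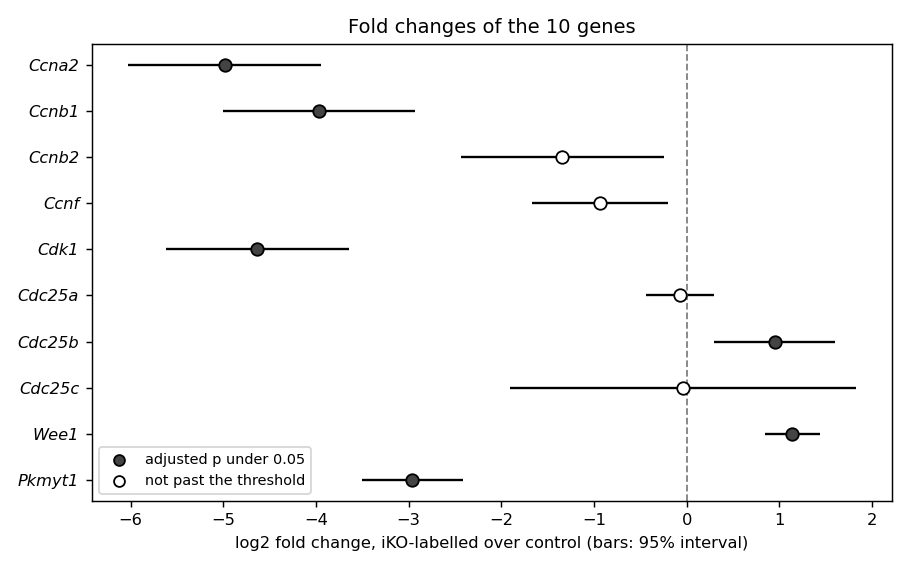
Log2 fold change of iKO-labelled over control for the 10 genes, with 95% intervals from edgeR's quasi-likelihood fit; filled points passed an adjusted p of 0.05. Cdk1, Ccna2 and Ccnb1 lie at -3.96 or lower, Pkmyt1 at -2.96 and Wee1 at 1.14, while the interval of Cdc25c spans from -1.91 to 1.83.

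Levels of different genes were compared on the deposited FPKM, which divide by gene length. In the iKO-labelled libraries Wee1 stood far above the rest at 66.3 ± 3.25 FPKM, followed by Cdc25b at 8.24 ± 0.328 FPKM (SD, n = 3). Cdc25a, Pkmyt1, Ccnf and Ccnb2 followed at 3.05 to 3.86 FPKM, each overlapping its neighbour in the order. The last were Cdc25c, Cdk1, Ccna2 and Ccnb1, at 0.357 to 0.530 FPKM and likewise overlapping, so the kinase and its chief cyclins lay at the bottom. In the controls Wee1 (29.8 ± 4.88 FPKM) and Pkmyt1 (27.3 ± 4.89 FPKM) overlapped at the top, and Ccna2 (12.5 ± 2.74 FPKM) and Cdk1 (11.4 ± 4.13 FPKM) came next. From Ccna2 down to Cdc25a each gene overlapped its neighbour in the controls, and Cdc25c stood apart at the bottom (0.538 ± 0.372 FPKM).

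Within each role, the makeup of the FPKM differed between the groups. Wee1 made up 93.9%, 96.0% and 94.9% of the summed FPKM of both inhibitory kinases in iKO-labelled libraries 1 to 3, against 54.3%, 52.3% and 50.0% in controls 1 to 3, where Wee1 and Pkmyt1 were thus nearly level. The sum itself was 69.8 ± 4.17 FPKM in the iKO-labelled libraries and 57.1 ± 9.53 FPKM in the controls (SD, n = 3 each). Among cyclins A2, B1 and B2, Ccnb2 made up 83.7%, 87.5% and 64.4% of the sum in iKO-labelled libraries 1 to 3, against 20.5%, 26.1% and 38.5% in controls 1 to 3. Their sum was 3.81 ± 0.731 FPKM in the iKO-labelled libraries and 25.7 ± 8.80 FPKM in the controls. What remained of these cyclins' messenger RNA in the iKO-labelled libraries was thus mostly Ccnb2. Cdc25b made up 60.0%, 68.6% and 67.7% of the summed Cdc25 FPKM in iKO-labelled libraries 1 to 3, against 35.01%, 46.8% and 58.7% in controls 1 to 3.

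**Figure D4:**
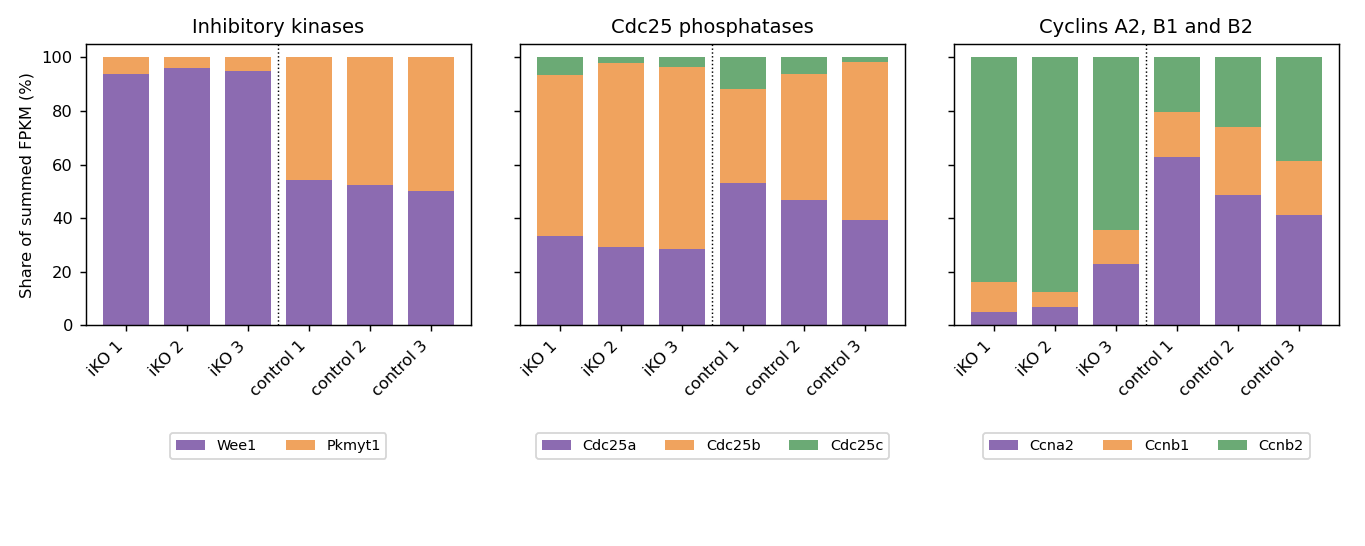
Share of each gene in the summed FPKM of its role, in percent, with 1 stacked bar per library, the iKO-labelled libraries to the left of the dotted line and the controls to the right. Wee1 takes 93.9% to 96.0% of the inhibitory kinases in the iKO-labelled libraries and 50.0% to 54.3% in the controls, and Ccnb2 takes 64.4% to 87.5% of the cyclins in the iKO-labelled libraries and 20.5% to 38.5% in the controls.

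Ratios within a library would not depend on how libraries are scaled, but for the offset added here to each value. That offset weighs most on genes at low level. A set of 14 log2 ratios of FPKM (0.1 added to each value) was compared between groups by a two-sided exact permutation test. Its smallest p with 3 libraries against 3 is 0.10, so no ratio could pass a threshold of 0.05. Groups did not overlap for 12 of the 14, each with exact permutation p = 0.10 (adjusted p = 0.117). Many of the ratios share Cdk1 or another gene that fell, so they are not independent and partly restate those falls. The log2 ratio of Wee1 to Cdk1 was 6.84, 6.45 and 7.61 in iKO-labelled libraries 1 to 3, against 1.91, 1.55 and 0.83 in controls 1 to 3. Messenger RNA of Wee1 thus exceeded that of Cdk1 in every library of both groups, by more in the iKO-labelled ones (difference 5.54, and 4.18 with 1 added to each FPKM). Protein was not measured here. The log2 ratio of Pkmyt1 to Cdk1 was 2.92, 1.90 and 3.43 in iKO-labelled libraries 1 to 3, against 1.66, 1.42 and 0.83 in controls 1 to 3, so Pkmyt1 fell by less than Cdk1 in these libraries (difference 1.44, and 0.40 with 1 added to each FPKM). Cdc25b over Cdk1 was 3.76, 3.45 and 4.71 in iKO-labelled libraries 1 to 3, against -1.33, -1.69 and -1.27 in controls 1 to 3 (difference 5.40, and 3.92 with 1 added). Between the opposing enzymes, the log2 ratio of Wee1 plus Pkmyt1 to the summed Cdc25 genes was 2.44, 2.51 and 2.42 in iKO-labelled libraries 1 to 3, against 2.64, 3.11 and 2.33 in controls 1 to 3, and the groups overlapped (difference -0.23, exact permutation p = 0.40).

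Within the cyclins, Ccnb2 over Ccnb1 had log2 ratios of 2.62, 3.53 and 2.10 in iKO-labelled libraries 1 to 3, against 0.29, 0.06 and 0.92 in controls 1 to 3, so Ccnb2 exceeded Ccnb1 by more in every iKO-labelled library (difference 2.33, and 1.18 with 1 added to each FPKM). Ccnb1 over Cdk1, cyclin to kinase, overlapped between the groups (-0.22, -1.05 and 0.56 in iKO-labelled libraries, against -1.41, -0.60 and -1.30 in controls; exact permutation p = 0.20). Cdk1 over Cdk2, the kinase of S phase, was -5.25, -4.61 and -5.85 in iKO-labelled libraries 1 to 3, against -2.40, -2.24 and -1.74 in controls 1 to 3 (difference -3.11, and -1.81 with 1 added to each FPKM). Cdk2 itself fell to 49.2 ± 6.91 CPM in the iKO-labelled libraries, against 121 ± 23.7 CPM in the controls (edgeR adjusted p = 0.0019). Ccnb1 over Ccnd1, the cyclin of G1 entry, was -8.08, -8.30 and -7.65 in iKO-labelled libraries 1 to 3, against -4.22, -2.84 and -3.29 in controls 1 to 3 (difference -4.56, and -3.21 with 1 added). The inhibitor p21 (Cdkn1a), which binds cyclin-Cdk complexes, over Cdk1 was 10.1, 9.60 and 10.99 in iKO-labelled libraries 1 to 3, against 4.66, 4.01 and 3.41 in controls 1 to 3 (difference 6.20, and 4.87 with 1 added).

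Genes whose profile lay nearest to Cdk1 over the 6 libraries were taken by root mean square distance in log2 CPM centred on each gene's mean. Among the 5 nearest were Dscc1, which helps load the sliding clamp for cohesion (distance 0.34), Birc5, the survivin subunit of the chromosomal passenger complex (0.34), the processed pseudogene Gm11223 (0.35), whose counts may hold reads of a like gene, and Mns1 (0.47). Birc5 had 1.64, 3.13 and 1.17 CPM in iKO-labelled libraries 1 to 3, against 24.6, 46.3 and 38.4 CPM in controls 1 to 3. Control 1 was the lowest control for both Birc5 and Cdk1, which the choice by nearness of profile favours. Of the other 9 genes of the switch, Ccnb1 came 28th in this order (0.75), Ccna2 67th (0.97) and Pkmyt1 76th (1.01). Ccnb2 (1.73) came 541st and Ccnf (1.99) 1576th.

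Other genes of G2/M control, in lists chosen with earlier results of these data known, are given by counts, to be read beside 12.3% lower and 8.15% higher among all tested genes, and by medians, beside the median log2 fold change of 0.02 over all tested genes. Of 9 Polo and Aurora kinases and cofactors 5 fell (median -2.42): Bub1, a spindle checkpoint kinase, had 0.0724 ± 0.0685 CPM in the iKO-labelled libraries and 23.2 ± 9.83 CPM in the controls, and Aurkb, which corrects faulty kinetochore attachments, 0.276 ± 0.239 CPM in the iKO-labelled libraries and 33.5 ± 8.19 CPM in the controls (SD, n = 3). Tpx2, the activator of Aurka, had 5.78 ± 3.53 CPM in the iKO-labelled libraries and 35.7 ± 15.5 CPM in the controls. Aurka (-2.42 ± 0.51) and Plk4 (-1.77 ± 0.46), named after their values were seen, were the others that fell. Plk1, the kinase that acts on Cdc25 and Wee1 proteins, was named after its value was seen: it had 2.49 ± 1.59 CPM in the iKO-labelled libraries and 4.96 ± 2.27 CPM in the controls and did not pass the test (adjusted p = 0.336). Of 14 transcription factors of G2/M genes 7 fell (median -0.47), with the smallest p for Mybl2 (B-Myb, which joins MuvB in S phase; 0.485 ± 0.303 CPM in the iKO-labelled libraries and 38.2 ± 7.48 CPM in the controls), Tfdp1 (-1.51 ± 0.15), a partner of E2F, and Rbl1 (-3.46 ± 0.38), the pocket protein p107. Of 11 genes of ubiquitin ligases that act on cyclins and Cdc25, 6 fell (median -0.44). Among them were Cdc20, the mitotic activator of the APC/C (-2.39 ± 0.35), Fbxo5, an inhibitor of the APC/C (-2.40 ± 0.36) and Fzr1, the APC/C activator of G1 (-1.09 ± 0.17).

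Of 5 genes for Cks proteins, which dock substrates on Cdk, and for the Cdk-activating kinase, 2 fell: Cks1b (-2.24 ± 0.18, edgeR adjusted p = 2.2e-04) and Cks2 (-0.87 ± 0.14, adjusted p = 0.0039). Mnat1, of the activating kinase, stood at -0.38 ± 0.18 (adjusted p = 0.195). Of 13 checkpoint kinase and 14-3-3 genes 7 fell (median -0.44; 12.3% of all tested genes were lower), among them the 14-3-3 genes Ywhag (-0.81 ± 0.08) and Ywhah (-0.95 ± 0.11), whose proteins hold phosphorylated Cdc25 in the cytoplasm, and Chek1 (-1.19 ± 0.16), the kinase that phosphorylates Cdc25 after replication stress. Of 7 genes of the Greatwall and PP2A-B55 axis, which keeps Cdk1 substrates phosphorylated in mitosis, edgeR called 0 (2 at an unadjusted p under 0.05; DESeq2 called 0 and limma-voom 1). The members with the smallest p were Ppp2r1a (-0.22 ± 0.07, adjusted p = 0.0627), Arpp19 (-0.27 ± 0.10) and Ppp2r2d (0.30 ± 0.14).

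Genes listed here as p53-linked, whose action on Cdk1 was not tested, mostly went the other way. Of 8, 6 rose and 1 fell (median 0.89), where 8.15% of all tested genes were higher and 12.3% lower, and the riser with the smallest p, Cdkn1a, had 1434 ± 132 CPM in the iKO-labelled libraries and 408 ± 37.3 CPM in the controls (SD, n = 3). Ccng1, cyclin G1, stood at 2.40 ± 0.15 and Gadd45b, which can dissociate Cdk1 from cyclin B1, at 0.98 ± 0.10. The member that fell, named after its value was seen, was Gadd45a (-0.44 ± 0.11, edgeR adjusted p = 0.026). Of 8 cyclins D and E and G1 kinases, 5 fell and 1 rose (median -0.83). Ccne1 (-3.53 ± 0.22) and Ccne2 (-1.86 ± 0.24), the partners of Cdk2, fell, as did Cdk2 (-1.29 ± 0.17), Cdk4 (-0.67 ± 0.11) and Cdk6, the last named after its value was seen (-0.98 ± 0.22). Ccnd1 rose to 455 ± 88.3 CPM in the iKO-labelled libraries, against 219 ± 19.4 CPM in the controls. Medians of these lists differ in size and makeup, and no difference between lists was tested.

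**Figure D5:**
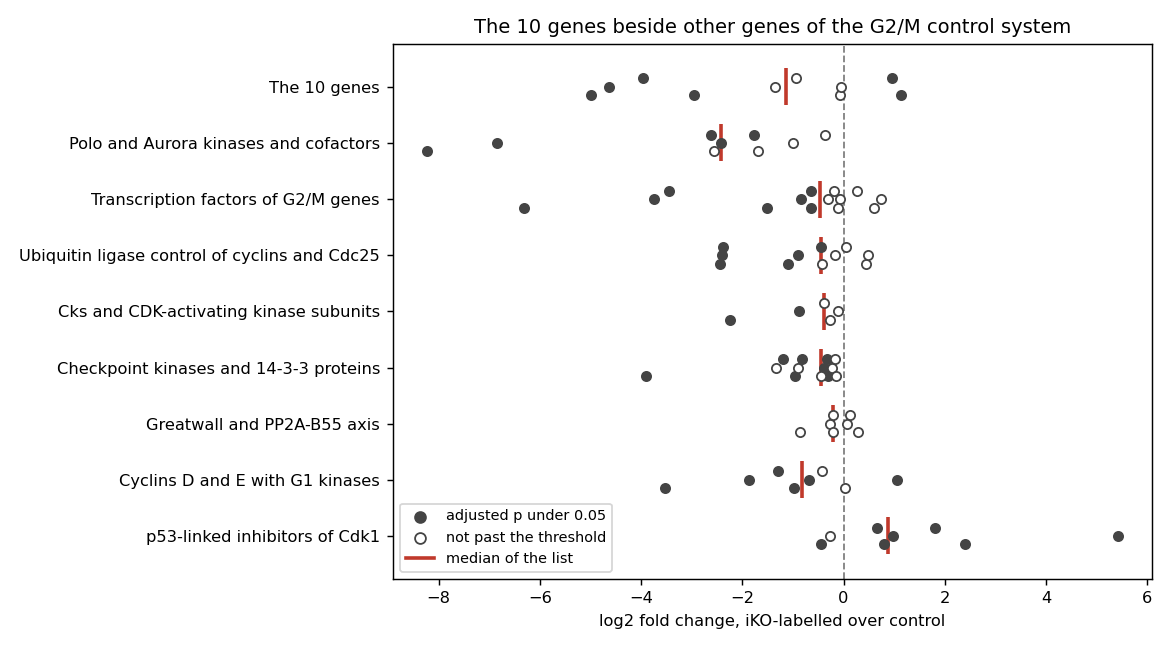
Log2 fold change of iKO-labelled over control for each tested gene of the 10 and of 8 lists of related genes; filled points passed an adjusted p of 0.05 in edgeR, and the red line is the median of the list. The median of the 10 is -1.14, that of Polo and Aurora kinases and cofactors -2.42 and that of the list labelled p53-linked inhibitors of Cdk1 0.89.

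Markers of other cells that a sort can carry along were present in both groups. Summed CPM were 124 to 146 in the iKO-labelled libraries and 70.7 to 255 in the controls for 7 endothelial markers. For 6 fibro-adipogenic markers they were 345 to 549 in the iKO-labelled libraries and 388 to 604 in the controls, and for 8 macrophage and leukocyte markers 106 to 205 in the iKO-labelled libraries and 125 to 192 in the controls, so each of these overlapped. For these 3 lists edgeR called 0 genes each (0, 1 and 0 at an unadjusted p under 0.05; DESeq2 called 0, 1 and 0 and limma-voom 0). Myofibre markers (6) summed to 12.5 to 17.2 CPM in the iKO-labelled libraries and 16.4 to 64.1 CPM in the controls, and 1 of them, Acta1, fell. Mural cell markers (5) summed to 93.0 to 118 CPM in the iKO-labelled libraries and 216 to 319 CPM in the controls, without overlap. Of them 1 fell, Acta2 (smooth muscle actin), which had 41.8 ± 7.47 CPM in the iKO-labelled libraries and 197 ± 55 CPM in the controls. Rgs5, named after its value was seen, had 51.6 ± 15.5 CPM in the iKO-labelled libraries and 51.3 ± 35.7 CPM in the controls. Control 1 was the lowest control for Cdk1, Ccna2, Ccnb1, Ccnb2, Pkmyt1 and Cdc25b. That library had the highest control sum of endothelial (255 CPM), fibro-adipogenic (604 CPM) and myofibre markers (64.1 CPM). It had the lowest control sum of macrophage and leukocyte markers (125 CPM). No marker was at 0 in all libraries. The part of these cells in the levels of Cdk1, Ccna2, Ccnb1 and Pkmyt1 was not tested.

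Over all genes, edgeR called 1324 higher and 1991 lower, 20.4% of those tested. With library totals in place of TMM factors, 57.2% of the called genes were higher, against 39.9% with TMM, and the median of all genes moved by 0.13 on the log2 scale; the 4 falls and 2 rises among the 10 genes were called under both.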

How the data were processed

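Satellite cell RNA was amplified by the Smart-Seq2 protocol, which does not mark strand, per the labels' protocols. Trim Galore, STAR, featureCounts, Subread and DESeq2 are listed without versions or roles, with the build mm10, per the submitters' processing notes. Annotation release, strand setting and handling of multi-mapping reads: not given in the sources used here. The authors deposited raw read counts per gene and FPKM for the same genes; count-to-FPKM ratios between libraries matched median-of-ratios size factors to within 9.3e-15 over 11939 genes (20 or more counts per library). Of 46078 rows, 551 without a gene name (0.108% to 0.123% of a library's counts) were left out.

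Libraries were grouped by title. Low counts were removed by filterByExpr (at least 10 counts, total of 15), and the rest scaled by TMM and fitted with edgeR 4.0.16 (R 4.3.3, quasi-likelihood test, group as the only term); the SE is the fold change divided by the square root of F. Genes with adjusted p under 0.05 were called. The fit was tested on simulated data with known changes, in which all genes had the same setting for the spread between libraries. That test does not cover genes that vary more between libraries. Ratios used Python 3.11.15. DESeq2 1.42.0 and limma 3.58.1 served as alternatives, with other factors, filters, FPKM pseudocounts, a replicate block and each library left out. The members, lists and tests were chosen with earlier results of these data known. Named genes are the 10 members, Paxbp1, up to 3 genes of each list with the smallest adjusted p, Ccnd1, Cdk2, Cdk4, Cdkn1a and the 5 nearest to Cdk1, 1 of which is not reported here; others are marked. Gene positions are from GENCODE M21 and promoter sequences from RefSeq, GRCm38.p6.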

Additional observations from a re-analysis of the deposited data

How the results depend on the processing

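Falls of Cdk1, Ccna2, Ccnb1 and Pkmyt1 and the rise of Wee1 were called under all 17 alternatives, with log2 fold changes of -4.94 to -3.04, -5.66 to -3.27, -4.30 to -2.17, -3.18 to -2.65 and 1.08 to 1.28. The smallest sizes of the falls of Cdk1, Ccna2 and Ccnb1 came from log2(FPKM + 1), a pseudocount above their levels in the iKO-labelled libraries. Genes of the 10 called lower numbered 4 to 6 over the alternatives (4 to 5 with a library left out). Those called higher numbered 1 on unfiltered log2(FPKM + 1) and 1 to 2 with a library left out, since Cdc25b was then not called in 5 of 6 fits. Ccnb2 was called under 3 and Ccnf under 6 of the 17. The sign of Cdc25a, never called, turned under upper-quartile factors (0.0054), library totals (0.059) and with libraries left out (-0.21 to 0.011). That of Cdc25c, likewise, turned under upper-quartile factors (0.024), library totals (0.086), limma-voom (0.083) and the replicate block (0.028), and ran from -0.61 to 0.63 with libraries left out; it did not pass the filter of 5 CPM in 3 libraries nor that on mean FPKM. The difference between groups, iKO-labelled minus control, in the log2 ratio of inhibitory kinases to Cdc25 genes stayed below 0, at -0.41 to -0.03. The log2 ratio itself was above 0 in every library. Of all genes, DESeq2 called 2100 higher; leaving out a library gave 706 to 1159 higher and 1347 to 1657 lower. The series names 3 pairs of mice, but same-numbered libraries did not deviate together (correlations of -0.067, -0.0021 and -0.059), so the numbers were not used as pairs. With the replicate block edgeR called 813 genes higher and 1402 lower, and the same 4 and 2 of the 10. The cause of these changes was not tested. Of the 10 genes Cdc25c had the fewest reads over the 6 libraries, at 10 to 49 in each.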
